A study of Mus musculus with 9 samples.

Results

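The comparison described here set the hearts of 3 mice pre-treated with Shexiang Baoxin Pill (SBP) against those of 3 vehicle-treated mice after the same ischemia-reperfusion (I/R), with the deposited nuclei of each heart, taken from below the ligation, summed over all cell types into 1 profile. These 6 samples were chosen by their treatment labels, out of 9 samples in the series. All animals were C57BL/6 mice, 8 weeks old per the study's methods, and each sample was 1 mouse. I/R mice received vehicle by gavage for 7 days, then ligation of the left anterior descending (LAD) coronary artery for 30 min and 24 h of reperfusion. SBP mice received SBP, which the labels call MUSKARDIA, in the same vehicle for the same days and went through the same operation. The 3 remaining mice were sham animals, given vehicle for 7 days and operated on without ligation, and their values stand beside the others as a reference. The pill was given before injury only, as a single dose level, and the hour of the day at which hearts were taken is not given in the sources used here. Gene levels are given as CPM, in which the unique molecular identifiers (UMIs, 1 per captured transcript) of a gene are scaled to the same total in every heart.

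SBP is a compound of traditional Chinese medicine made from musk, artificial bezoar, styrax, ginseng, cinnamon bark, toad venom and borneol. Toad venom holds bufadienolides, steroids that inhibit the sodium pump, and bezoar holds bile acids. Reperfusion of an occluded coronary artery restores oxygen but leaves a field of dying myocardium, into which neutrophils, then monocytes, migrate. Resident macrophages clear debris, fibroblasts turn to matrix production, and surviving cardiomyocytes lower parts of their contractile and metabolic programs. The question of the comparison was how pre-treatment altered that state.

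The I/R hearts held 17274 nuclei and the SBP hearts 15871, with between 13238407 and 18205985 UMIs per heart. All 10 cardiomyocyte markers, among them the sarcomere and calcium genes Ttn, Ryr2 and Myh6, had UMIs in each of the 6 hearts. The mice of a group differed widely. The median standard deviation of a gene between mice was 0.256 on the log2 scale in I/R, 0.188 in SBP and 0.195 in sham. In a principal component analysis over genes, the first component held 48.4% of the variance and placed the sham hearts between 40.42 and 48.57. I/R mice 1, 2 and 3 lay at −28.26, −49.38 and −12.39 on it, and SBP mice at −17.78, −21.12 and −6.073, so that both injured groups overlapped there. The pair of hearts most alike across the groups was I/R mouse 1 and SBP mouse 2, with a correlation of 0.9861 across genes, higher than that of I/R mouse 1 with either other I/R heart (0.9659 and 0.963). Genes are not independent replicates, so these correlations only describe the profiles.

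No gene passed the test between SBP and I/R. A gene was called in limma, fitted on log2(CPM + 1), where its adjusted p did not exceed 0.05 and its log2 fold change lay beyond 0.25 in either direction. Of 16056 genes 0 were called (0%), and the smallest Benjamini-Hochberg adjusted p was 0.996. Without adjustment, 640 genes (3.99%) had a p under 0.05, 272 higher in SBP (1.69%) and 368 lower (2.29%). Every gene p given from here on is such an unadjusted limma p, and its adjusted p is 0.996 or more. In 1297 genes (8.08%) all 3 SBP mice lay outside the range of the 3 I/R mice, 599 of them above it (3.73%) and 698 below it (4.35%). Such a separation of 3 against 3 mice has an exact permutation p of 0.1. The share of 8.08% thus does not exceed what random labels would give on average. The fold change was above 0 for 43.6% of the genes and below 0 for 56.4%. The count of 640 was 1009 without I/R mouse 1, 1310 without I/R mouse 3 (of which 971 were lower), 1052 without SBP mouse 2 and 286 without SBP mouse 3. No gene was called without any 1 mouse, and the smallest adjusted p of these fits was 0.139, without I/R mouse 2. Scaling changed its balance. With TMM factors 355 genes were higher and 347 lower, and with median-of-ratios factors 377 and 330.

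The 95% interval of a log2 fold change reached 0.45 to either side for the median gene and lay wholly within ±1 for 86.5% of the genes. The log2 fold change of the median gene had a size of 0.14, and 104 genes exceeded 1. For scale, the same fit called 1730 genes (10.8%) between I/R and sham, 1230 higher (7.66%) and 500 lower (3.11%) in I/R. With TMM factors that split was 950 and 777. The number was 577, 1030 and 379 without sham mice 1, 2 and 3, 556 without I/R mouse 2, and 2552 without I/R mouse 3. Both contrasts share the I/R hearts, so a gene that happened to be high in I/R mice appears with opposite signs in them. Sham values are therefore given only as levels.

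**Figure D1:**
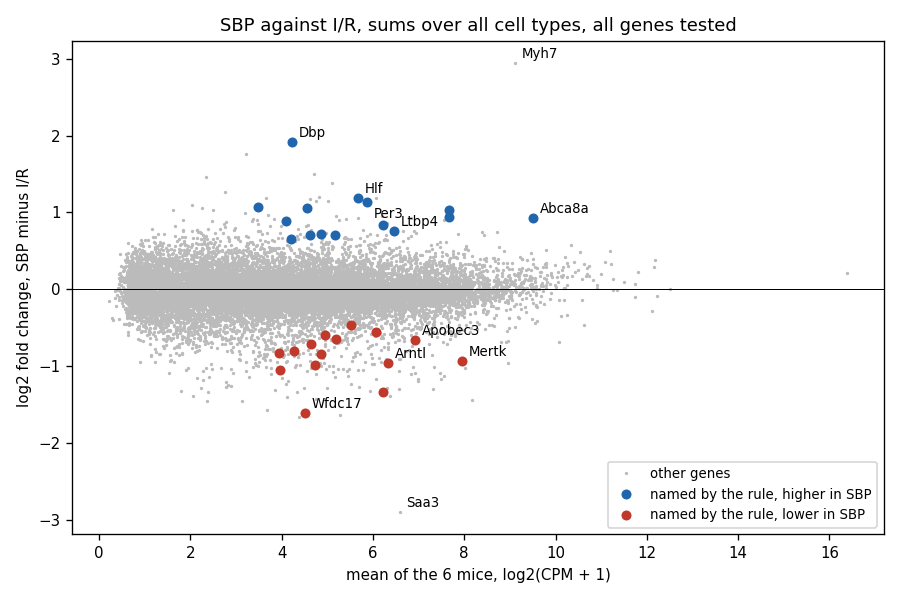
Log2 fold change of SBP against I/R (vertical axis) by mean level of the 6 mice (horizontal axis, log2 of CPM + 1) for 16056 genes, 1 point per gene. Blue and red mark the 15 genes higher and the 15 lower that were named by the fixed rule, and among genes of at least 10 CPM Myh7 and Saa3 lie farthest from 0, at 2.94 and −2.90 (−0.66 for Saa3 without I/R mouse 2).

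The genes with the smallest p in each direction, among those whose groups did not overlap and whose mean was at least 10 CPM, are the ones named by the fixed rule. The 15 higher genes were Dbp, Hlf, Podn, Abca8a, Pcsk6, Abca8b, Carmn, Gli2, Per3, Reck, Gxylt2, Gm30262, Apba2, Ltbp4 and Samd5. The 15 lower were Apobec3, Sla, Arntl, Fcgr3, Klhl38, Mertk, Dhx9, Slfn1, Wfdc17, Atf4, Mast3, Siglec1, Ms4a6d, C5ar1 and Map3k8. Since the rule asks for groups that do not overlap, that feature of the 30 genes is no finding. Most are described with their gene groups, and others are given here. Carmn, a long non-coding RNA of smooth muscle, stood at 12.3, 13.3 and 14.6 CPM in I/R mice 1, 2 and 3 and 19.3, 22.6 and 22.8 CPM in SBP mice 1, 2 and 3 (log2 fold change 0.65, SE 0.14, p 0.000895). Apba2, a neuronal adaptor that binds the amyloid precursor, stood at 9.89, 14.2 and 8.87 CPM and 17.3, 21 and 24.9 CPM (log2 fold change 0.89, SE 0.22, p 0.00213). Samd5 reached 19, 20.1 and 14.2 CPM in I/R and 26.4, 27.5 and 34.4 CPM in SBP (log2 fold change 0.70, SE 0.18, p 0.00262). Among the lower genes, Map3k8, a kinase of inflammatory signalling, stood at 31, 41.4 and 37 CPM and 27.9, 22.3 and 21 CPM (log2 fold change −0.60, SE 0.17, p 0.00448). Klhl38, a kelch protein of striated muscle, stood at 29.9, 27.7 and 31.3 CPM and 21.6, 18.4 and 14.1 CPM (log2 fold change −0.71, SE 0.17, p 0.00157), and the kinase gene Mast3 at 47.5, 45.1 and 37.7 CPM and 30.3, 31.2 and 21.3 CPM (log2 fold change −0.65, SE 0.17, p 0.00277). Slfn1, a Schlafen gene of lymphoid and myeloid cells, stood at 16.5, 28.5 and 15.8 CPM and 7.22, 11.9 and 8.23 CPM (log2 fold change −1.05, SE 0.25, p 0.00193). The log2 fold changes of these genes lay between −1.05 and 0.89.

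The molecular clock is a loop in which the factors Arntl (also named Bmal1), Clock and Npas2 bind E-boxes and drive their own repressors, the Per and Cry genes and the nuclear receptors Nr1d1 and Nr1d2. Nr1d1 and Nr1d2 silence Arntl through RORE elements, at which Rora activates. Dbp, Tef and Hlf are output factors that bind D-boxes, and Nfil3 opposes them there. Their levels oscillate over the day in the heart, so that the hour of sampling sets them. Promoter windows of 3 of these genes are shown because they hold letters that match a D-box, a RORE core and an E-box. Each is the RefSeq window from 250 bases before to 50 bases after a gene's start on GRCm38.p6, 5′ to 3′, with the matched motif in capitals.
Per3, chr4:151044616-151044915, minus strand, D-box: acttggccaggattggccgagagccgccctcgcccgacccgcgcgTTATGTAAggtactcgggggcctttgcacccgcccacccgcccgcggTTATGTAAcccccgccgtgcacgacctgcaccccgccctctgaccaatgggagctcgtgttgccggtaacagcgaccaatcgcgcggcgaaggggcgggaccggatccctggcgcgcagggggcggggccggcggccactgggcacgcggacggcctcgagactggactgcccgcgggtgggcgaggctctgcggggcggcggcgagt
Arntl, chr7:113207261-113207560, plus strand, RORE core: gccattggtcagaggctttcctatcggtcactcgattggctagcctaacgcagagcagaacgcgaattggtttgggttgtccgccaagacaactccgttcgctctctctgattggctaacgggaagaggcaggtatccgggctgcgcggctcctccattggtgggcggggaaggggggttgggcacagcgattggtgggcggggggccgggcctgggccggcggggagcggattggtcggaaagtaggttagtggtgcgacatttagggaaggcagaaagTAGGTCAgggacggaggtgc
Tef, chr15:81802423-81802722, plus strand, E-box: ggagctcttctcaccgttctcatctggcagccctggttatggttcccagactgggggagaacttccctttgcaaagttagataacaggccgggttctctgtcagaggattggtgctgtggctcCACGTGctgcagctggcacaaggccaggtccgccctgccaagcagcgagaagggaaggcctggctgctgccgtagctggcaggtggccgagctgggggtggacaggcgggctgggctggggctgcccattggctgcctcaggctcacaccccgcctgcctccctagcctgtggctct

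The D-box letters TTATGTAA stood in the Per3 window 2 times, at 205 to 198 and at 158 to 151 bases before the start. They occurred in 0.938% of all 32851 windows, on either strand. The RORE core TAGGTCA occurred in 2.61% of windows and lay at bases 31 to 37 of the transcribed part of the Arntl window, which belongs to the later of 2 listed starts. The E-box letters CACGTG occurred in 7.15% of windows and lay 127 to 122 bases before the Tef start. Of 30 clock genes searched, 24 had a window. An E-box was found in 7 of them, a D-box in 2 (Per3 and Coq10b) and the RORE core in 2 (Arntl and Nfil3). A match in letters is not evidence of binding.

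The output factors Dbp, Hlf and Tef had higher means in SBP hearts. Dbp (chr7:45705088-45710203) had the smallest p of all 16056 genes. It stood at 5.33, 5.38 and 9.5 CPM in I/R mice 1, 2 and 3 and at 18.5, 37 and 29.9 CPM in SBP mice 1, 2 and 3 (log2 fold change 1.92, SE 0.34, p 0.000195). Sphk2 overlaps Dbp on the other strand. The lowest SBP heart was above the highest I/R heart, and both groups were below the sham level of 88.2 ± 38.7 CPM (SD, n = 3). Hlf (chr11:90336536-90390895) stood at 28, 22.8 and 39.9 CPM in I/R and 52.7, 66.1 and 91.2 CPM in SBP (log2 fold change 1.19, SE 0.23, p 0.000479). Tef reached 64.9, 79.4 and 137 CPM in I/R and 126, 155 and 170 CPM in SBP (log2 fold change 0.74, SE 0.24, p 0.0115). For Tef the groups overlapped, since I/R mouse 3 exceeded SBP mouse 1. Of the 10 tested genes of the output list, 3 had an unadjusted p under 0.05, all higher in SBP, against 1.69% of all genes, and their number was 3 or 4 without any 1 mouse. The list's median log2 fold change was 0.18, beside −0.03 over all genes, and it was −0.01 without I/R mouse 1, 0.10 without I/R mouse 2, 0.45 without I/R mouse 3, 0.07 without SBP mouse 1 and 0.11 without SBP mouse 2.

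Repressors leaned the same way. Per3 (chr4:151003652-151044665) was the only one whose groups did not overlap, at 25.9, 31.9 and 51.4 CPM in I/R and 62.6, 86 and 88.1 CPM in SBP (log2 fold change 1.14, SE 0.25, p 0.001). Camta1 overlaps Per3 on the same strand, so reads could be split between them. Nr1d1 stood at 6.76, 12.7 and 25.3 CPM and 22.9, 27.9 and 46 CPM (log2 fold change 1.18, SE 0.42, p 0.0192), and Nr1d2 at 49.3, 83.7 and 144 CPM and 114, 159 and 162 CPM (log2 fold change 0.76, SE 0.32, p 0.038). In both receptor genes I/R mouse 3 reached into the SBP range. Bhlhe41, a repressor that competes for E-boxes, stood at 11.1, 6.96 and 7.28 CPM and 8.99, 14.7 and 16.2 CPM (log2 fold change 0.59, SE 0.24, p 0.0328). Other members did not separate. Per1 stood at 56.7, 110 and 92.4 CPM in I/R and 105, 82.4 and 74.9 CPM in SBP, with a log2 fold change of 0.05 and a 95% interval of −0.59 to 0.70. The values of Per2 were 20.3, 43.3 and 43 CPM and 43, 47.5 and 41.5 CPM (log2 fold change 0.38, 95% interval −0.24 to 1.00, and 0.02 without I/R mouse 1). Cry1, Cry2, Ciart and Bhlhe40 had log2 fold changes of −0.18, 0.15, 0.79 and 0.22, and without I/R mouse 3 that of Ciart was 1.24. Without I/R mouse 1 they were −0.29, −0.14, 0.55 and 0.07, and without SBP mouse 1 that of Cry1 was −0.10. In all, 4 of 10 repressors had an unadjusted p under 0.05, all higher, beside 1.69% of all genes, and 2 did without I/R mouse 1, I/R mouse 2 or SBP mouse 2 and 1 without SBP mouse 3. The median of the list was 0.48, and it was 0.22 without I/R mouse 1. Without that mouse the log2 fold change was 0.75 for Nr1d1 and 0.38 for Nr1d2.

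Of 8 activators and related factors tested, 5 had a fold change below 0, beside 56.4% of all genes, with a median of −0.17 that was −0.01 without SBP mouse 2. Arntl (chr7:113207465-113314126) stood at 133, 98.4 and 83 CPM in I/R mice and 50.2, 41.2 and 70 CPM in SBP mice (log2 fold change −0.96, SE 0.22, p 0.00144). Every SBP heart was below every I/R heart and above the sham level of 11.8 ± 1.35 CPM (SD, n = 3). Npas2 stood at 158, 123 and 152 CPM in I/R and 123, 53.8 and 105 CPM in SBP (log2 fold change −0.69, SE 0.28, p 0.0356), with SBP mouse 1 just under the lowest I/R heart. Clock showed the smallest spread, at 222, 210 and 196 CPM and 169, 162 and 183 CPM (log2 fold change −0.29, SE 0.11, p 0.0238). Nfil3, the opponent of the output factors, stood at 17.1, 34.3 and 14.8 CPM and 14.5, 9.44 and 9.97 CPM (log2 fold change −0.84, SE 0.29, p 0.0168). Rora went the other way, at 2100, 1480 and 2280 CPM in I/R and 2500, 2660 and 3020 CPM in SBP (log2 fold change 0.50, SE 0.17, p 0.0161). The log2 fold change was −0.49 for Nfil3 and 0.31 for Rora without I/R mouse 2, and without SBP mouse 2 it was −0.34 for Npas2. In this list 4 genes had an unadjusted p under 0.05 and were lower, beside 2.29% of all genes, and 1 was higher, beside 1.69%. Without I/R mouse 1 or 2 the number lower was 2, and without SBP mouse 2 it was 1. Whether the hour of collection differed between the groups was not tested, and it cannot be told apart from treatment in these samples.

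**Figure D2:**
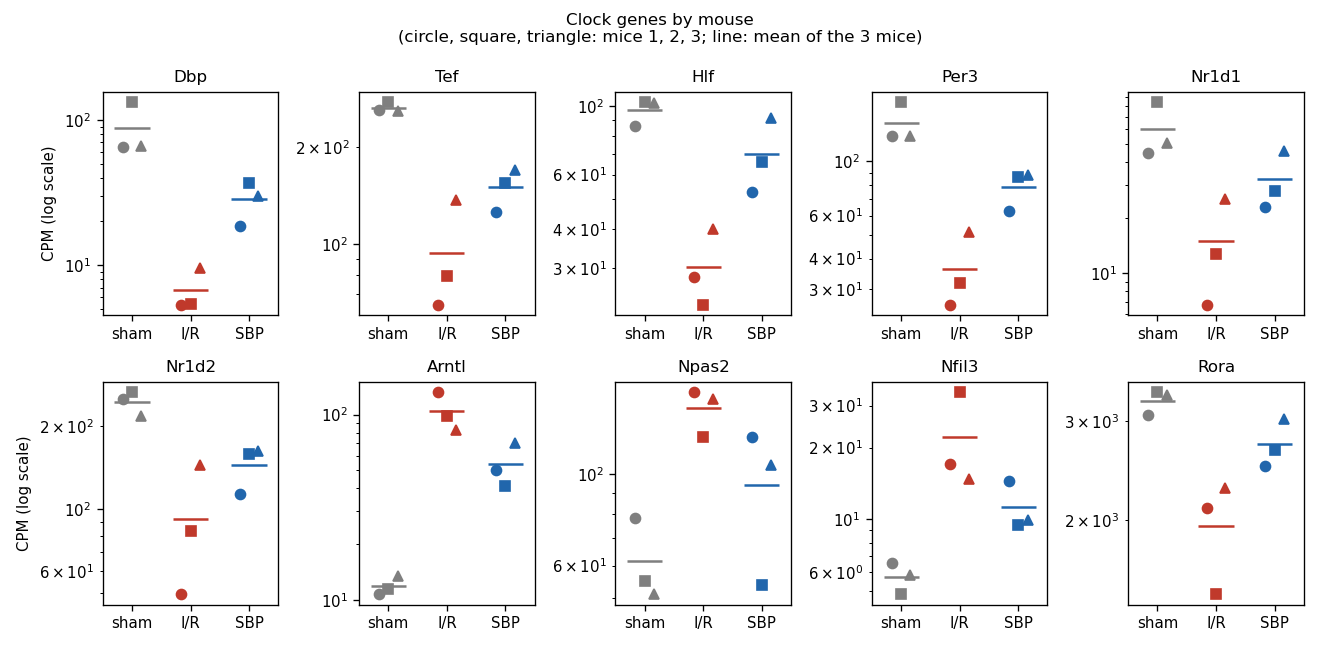
Levels of 10 clock genes (CPM, log axis) in each mouse of the sham, I/R and SBP groups, with a line at the mean of 3 mice. For Dbp, Hlf, Per3 and Rora the SBP mice lay above all I/R mice, for Arntl, Npas2 and Nfil3 below them, while Tef, Nr1d1 and Nr1d2 overlap.

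Among contractile genes, Myh7 had the largest log2 fold change of all genes of at least 10 CPM. Myh7 (chr14:54970684-54994626) encodes the beta, or fetal and slow, myosin heavy chain. Its levels were 39.7, 513 and 72.2 CPM in I/R mice 1, 2 and 3, 1020, 874 and 781 CPM in SBP mice and 141 ± 89 CPM (SD, n = 3) in sham mice (log2 fold change 2.94, SE 0.80, p 0.00429, 95% interval 1.16 to 4.73). All SBP hearts were above all I/R hearts. I/R mouse 2 was the highest of its group, and both other I/R mice were below the sham mean. Without I/R mouse 2 the log2 fold change was 4.02, and without I/R mouse 1 it was 2.19. Its neighbour Mhrt (chr14:54968678-54974349) is a long non-coding RNA on the opposite strand that overlaps Myh7, and the sources used here do not say how such reads were assigned. Mhrt stood at 404, 56.5 and 344 CPM in I/R and 62, 118 and 92.2 CPM in SBP (log2 fold change −1.17, SE 0.60, p 0.0806). I/R mouse 2 was lowest of all 6, so the groups overlapped, and without it the log2 fold change was −2.07. It was −0.67 without I/R mouse 1. Myh6, the adult alpha myosin heavy chain, was found at 3660, 891 and 3890 CPM in I/R, 1530, 2810 and 2890 CPM in SBP and 6470 ± 443 CPM (SD, n = 3) in sham, a log2 fold change of −0.01 with a 95% interval of −1.11 to 1.09. The same I/R mouse 2 was again the lowest.

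The other sarcomere genes given here shifted less than Myh7. Of 24 genes of the thin filament, thick filament and Z disc, 19 had a fold change above 0, beside 43.6% of all genes. The median log2 fold change was 0.23, and 0.12 without I/R mouse 2. An unadjusted p under 0.05 was seen in 3 of them, all higher in SBP, beside 1.69% of all genes, and in none without SBP mouse 1. Acta1, the skeletal actin that the fetal heart also makes, stood at 5.99, 5.81 and 3.36 CPM in I/R and 15.7, 9.96 and 7.93 CPM in SBP (log2 fold change 0.99, SE 0.42, p 0.0391), without overlap. Actn2, the Z disc crosslinker alpha-actinin 2, stood at 451, 431 and 675 CPM and 676, 629 and 739 CPM (log2 fold change 0.42, SE 0.17, p 0.0372). Ldb3, which anchors alpha-actinin, stood at 547, 646 and 542 CPM and 762, 746 and 737 CPM (log2 fold change 0.38, SE 0.16, p 0.0367) and did not overlap. Tpm1, a tropomyosin, was higher in all 3 SBP hearts, at 862, 774 and 823 CPM against 604, 634 and 537 CPM in I/R (log2 fold change 0.47, SE 0.25, p 0.0841). Actc1, cardiac actin, overlapped at 231, 55.7 and 115 CPM and 143, 201 and 170 CPM (log2 fold change 0.57, SE 0.44, p 0.225, with 0.06 without I/R mouse 2 and 1.08 without I/R mouse 1), and Tnnt2, cardiac troponin T, at 1420, 1480 and 1670 CPM and 2240, 1790 and 1640 CPM (log2 fold change 0.30, SE 0.15, p 0.0709, and 0.17 without SBP mouse 1). The cardiomyocyte marker sum was 26300, 16700 and 22400 CPM in I/R and 20700, 22000 and 22300 CPM in SBP, a ratio of 0.996, beside 34000 to 41300 CPM in sham. Of its 10 markers, 8 had a fold change above 0, beside 43.6% of all genes, with a median log2 fold change of 0.2. In sums over all cell types, fewer cells of a type and less RNA per cell cannot be told apart.

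**Figure D3:**
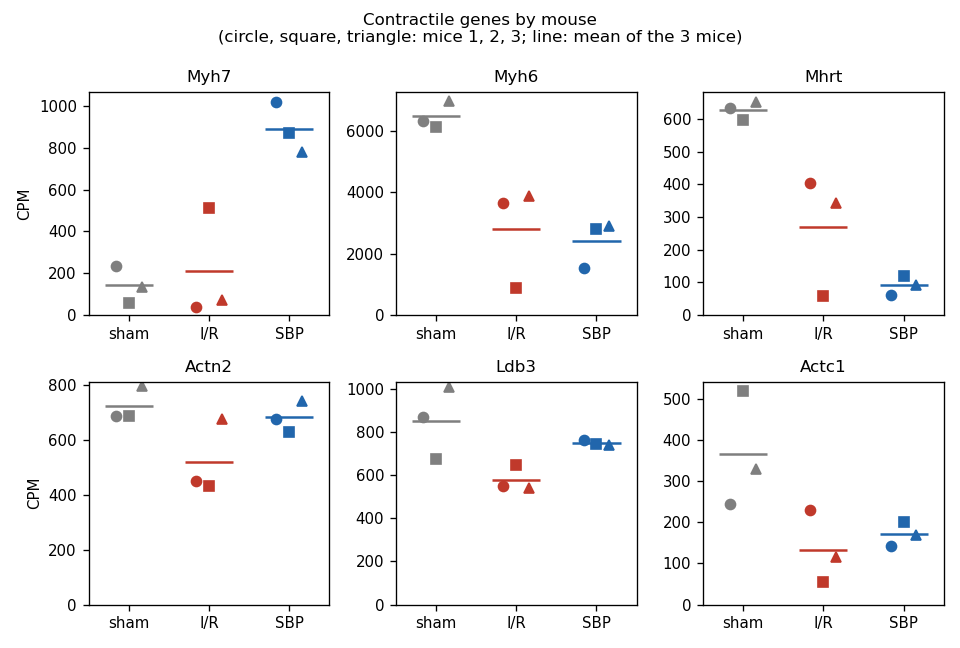
Levels of 6 contractile genes (CPM, linear axes from 0) in each mouse, with a line at the mean of 3 mice. Myh7 separates SBP (781 to 1020 CPM) from I/R (39.7 to 513 CPM), whereas I/R mouse 2 (square) is the lowest I/R heart for Myh6, Mhrt and Actc1.

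Genes by which stretched or injured cardiomyocytes are recognised did not pass the test. Nppb, the gene of B-type natriuretic peptide, stood at 22, 48.6 and 38.1 CPM in I/R and 61.1, 46.5 and 48 CPM in SBP (log2 fold change 0.56, SE 0.40, p 0.192, with 0.25 without I/R mouse 1 and 0.81 without I/R mouse 2). Nppa, of the atrial peptide, had 17.1, 17.4 and 19.3 CPM in I/R and 25, 26.5 and 19.4 CPM in SBP (log2 fold change 0.37, SE 0.38, p 0.348), and SBP mouse 3 exceeded I/R mouse 3 only narrowly. Ankrd1, a stretch-responsive repressor, ranged from 201 to 807 CPM in I/R and from 305 to 873 CPM in SBP. Among 21 potassium channel genes, Kcnip2, the subunit that builds the transient outward current, stood at 61.8, 31 and 65.1 CPM in I/R and 69.9, 68.4 and 93.5 CPM in SBP (log2 fold change 0.60, SE 0.27, p 0.0484). It was the 1 channel gene higher at an unadjusted p under 0.05, beside 1.69% of all genes, and the 1 without overlap, beside 8.08%. Kcne4, a channel beta subunit, was the one lower at an unadjusted p under 0.05, beside 2.29% of all genes, at 3.68, 4.95 and 2.9 CPM in I/R and 2.95, 1.64 and 1.66 CPM in SBP (log2 fold change −0.66, p 0.0148). No channel gene was higher at p under 0.05 without any 1 SBP or sham mouse, and none was lower without I/R mouse 2, SBP mouse 2 or SBP mouse 3. For Kcnip2 the log2 fold change was 0.27 without I/R mouse 2, and the list's median of 0.12 was −0.02 without I/R mouse 2 and −0.04 without SBP mouse 3. The 19 tested calcium handling genes had a median of 0.05, which was 0.22 without I/R mouse 1, and none at an unadjusted p under 0.05 with all mice. Jph2, which docks the sarcoplasmic reticulum to the cell membrane, overlapped at 221, 142 and 278 CPM and 256, 250 and 419 CPM (log2 fold change 0.54, SE 0.26, p 0.0642, with 0.27 without I/R mouse 2 and 0.30 without SBP mouse 3).

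Sodium transport, the process on which bufadienolides act, was described by its gene list. Atp1b1, a beta subunit gene of the sodium pump, stood at 32.2, 43.2 and 59.7 CPM in I/R and 36.2, 44.2 and 39.3 CPM in SBP, a log2 fold change of −0.13 with a 95% interval of −0.60 to 0.33. None of the 17 genes of sodium transport had an unadjusted p under 0.05 with all mice, while 1 was higher and 2 were lower at that p without I/R mouse 3 and 1 was lower without I/R mouse 2. Their median was 0.06. Of 11 tested genes of bile acid receptors, steroid and drug transport, only the efflux pump gene Abcb1b had one, at 52.3, 55.3 and 43.9 CPM in I/R and 32.8, 44.7 and 40 CPM in SBP (log2 fold change −0.36, SE 0.16, p 0.0424), with overlap, beside 3.99% of all genes in either direction. No gene of that list was lower at that p without I/R mouse 1, I/R mouse 2, SBP mouse 1, SBP mouse 3 or sham mouse 3. A p above the threshold does not show that the levels were alike.

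Macrophage genes had lower means in SBP hearts. The sum of 10 macrophage and monocyte markers was 1570, 1920 and 1090 CPM in I/R mice and 801, 1100 and 795 CPM in SBP mice, a ratio of 0.587, and 595 to 667 CPM in sham mice. All 10 markers had a fold change below 0, and the sums overlapped only in that SBP mouse 2 was above I/R mouse 3. That ratio lay between 0.514 (without I/R mouse 3) and 0.673 (without I/R mouse 2) when single mice were left out. Of 20 resident macrophage genes, 18 had a fold change below 0, against 56.4% of all genes. The 2 above 0 were Timd4 and Lyve1, of which Lyve1 is also a lymphatic endothelial marker. For Timd4 the log2 fold change was 0.14 without I/R mouse 1 and 0.55 without I/R mouse 2. An unadjusted p under 0.05 was reached by 9 of the 20, all lower, beside 2.29% of all genes. Their number was 7 without SBP mouse 3, 8 without I/R mouse 2 and 14 without I/R mouse 3. In the fit without I/R mouse 3, 971 of all 15920 genes were lower at that p. With all mice, 8 of the 20 had all SBP hearts below all I/R hearts, beside 4.35%, and the median was −0.60.

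Mertk (chr2:128698956-128802894), a receptor for the uptake of dying cells, stood at 405, 310 and 258 CPM in I/R, 141, 219 and 151 CPM in SBP and 118 ± 20.6 CPM (SD, n = 3) in sham (log2 fold change −0.93, SE 0.22, p 0.00172). The mannose receptor gene Mrc1 stood at 432, 804 and 553 CPM in I/R and 321, 409 and 354 CPM in SBP (log2 fold change −0.68, SE 0.21, p 0.00773). C1qa, a chain of the complement starter C1q, stood at 88.6, 49.6 and 43.6 CPM and 28.9, 38 and 26.9 CPM (log2 fold change −0.88, SE 0.25, p 0.00511). In these 3 genes no SBP heart reached the lowest I/R heart. C1qc and Maf, a transcription factor of tissue macrophages, likewise did not overlap, with log2 fold changes of −0.69 and −0.57. C1qb had a log2 fold change of −0.91, with SBP mouse 2 above I/R mouse 3. Without I/R mouse 1 the log2 fold change was −0.57 for C1qa, −0.40 for C1qc and −0.37 for Maf, and without I/R mouse 2 it was −0.44 for Mrc1. Selenop, the selenium carrier, stood at 121, 62.6 and 121 CPM in I/R and 51.3, 55.2 and 62.5 CPM in SBP (log2 fold change −0.78, SE 0.24, p 0.00881), lower than or about equal to sham. Siglec1 (sialoadhesin) stood at 20.5, 22.9 and 13.1 CPM in I/R and 8.91, 11.4 and 9.44 CPM in SBP (log2 fold change −0.83, SE 0.22, p 0.0032), and Pf4, a chemokine of platelets and macrophages, at 38.3, 59.5 and 33.5 CPM and 27.8, 30.9 and 22.1 CPM (log2 fold change −0.65, SE 0.24, p 0.0206; −0.41 without I/R mouse 2).

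Genes of injury macrophages showed the same direction with wider spread. Of 26 genes, 24 had a fold change below 0, beside 56.4% of all genes. In 6 of them the unadjusted p was under 0.05, beside 2.29% of all genes that were lower at that p, and in 4 all SBP hearts were below all I/R hearts, beside 4.35%. Their median was −0.58, and −0.91 without SBP mouse 2. The number below 0 was 18 without I/R mouse 1 or 2. The number at p under 0.05 was 3 without SBP mouse 1 and 10 without SBP mouse 2. In the fit without SBP mouse 2, 627 of all 15939 genes were lower at that p. Arg1, which splits arginine, stood at 51.7, 182 and 54.3 CPM in I/R and 40.2, 36.3 and 29.2 CPM in SBP, against a sham mean of 0.185 ± 0.0973 CPM (SD, n = 3) (log2 fold change −1.17, SE 0.40, p 0.0153). Without I/R mouse 2, the highest heart, its log2 fold change was −0.59. Hmox1, the heme-degrading oxygenase, stood at 120, 44.2 and 34.6 CPM and 23.7, 23.9 and 23.6 CPM (log2 fold change −1.23, SE 0.38, p 0.00847), and without I/R mouse 1 it was −0.70. The SBP hearts were nearly equal for Hmox1 and below all I/R hearts. Cathepsin L (Ctsl) had 119, 91.9 and 104 CPM in I/R and 61.6, 89.5 and 68.2 CPM in SBP (log2 fold change −0.53, SE 0.18, p 0.0136), and the chemokine gene Ccl9 had 36.9, 53.5 and 40.2 CPM and 26.4, 29.7 and 20.2 CPM (log2 fold change −0.75, SE 0.22, p 0.00648). Single mice decided 2 other genes. Osteopontin (Spp1) stood at 499, 40.8 and 84.7 CPM in I/R and 36.9, 162 and 64.4 CPM in SBP, and Gpnmb at 277, 30.6 and 63.7 CPM and 18.9, 149 and 27.7 CPM. In both, I/R mouse 1 and SBP mouse 2 were the highest of their groups, and the groups overlapped.

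Myeloid genes outside these lists that the rule named were Wfdc17, a secreted protein of myeloid cells, Ms4a6d, the Fc receptor gene Fcgr3, the C5a receptor gene C5ar1, and Sla, an adaptor of blood cell receptors. Wfdc17 stood at 29.1, 55.2 and 17.3 CPM in I/R and 8.47, 14.7 and 6.27 CPM in SBP (log2 fold change −1.61, SE 0.39, p 0.00214). Ms4a6d stood at 137, 114 and 68.1 CPM and 35.4, 58.4 and 30.3 CPM (log2 fold change −1.34, SE 0.35, p 0.00333), and Ms4a4c of the same family at 30.4, 30.3 and 10.6 CPM and 4.27, 16 and 5.82 CPM (log2 fold change −1.41, SE 0.47, p 0.0131) with overlap. For Fcgr3 the values were 39.2, 41.3 and 28.6 CPM and 19.4, 24.1 and 16.2 CPM (log2 fold change −0.84, SE 0.19, p 0.0015). C5ar1 had 28.8, 22.2 and 19.3 CPM in I/R and 9.72, 16.7 and 12.7 CPM in SBP (log2 fold change −0.81, SE 0.22, p 0.00379), and Sla had 31.4, 40.8 and 31.1 CPM and 14.9, 20.2 and 15.4 CPM (log2 fold change −0.99, SE 0.21, p 0.000859).

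When each gene was expressed per 100 CPM of the macrophage and monocyte markers, the list medians lay nearer 0, while members went both ways. The median log2 ratio of the resident genes went from −0.67 to 0.08 and that of the injury genes from −0.74 to −0.06. Part of this move is built in, since some list members are also markers in the divisor. They are Mrc1, Cd163, C1qa, C1qb, Adgre1 and Csf1r of the resident genes and Vcan and Ccr2 of the injury genes. Only the gene itself was left out of its own sum. The ratio of the SBP to the I/R mean ranged from 0.58 to 2.05 among the injury genes, with 0.618 for Hmox1 and 0.677 for Arg1, and from 0.844 to 2.22 among the resident genes. No injury gene then separated the groups, while 4 had done so in CPM. Of the resident genes 1, Siglec1, was still lower in all SBP hearts, but by a narrow gap, at 1.31, 1.19 and 1.2 per 100 in I/R and 1.11, 1.04 and 1.19 per 100 in SBP. In 2 that had overlapped in CPM all SBP hearts were now higher. Timd4, a receptor for dying cells, stood at 0.196, 0.326 and 0.379 per 100 in I/R and 0.607, 0.487 and 0.903 per 100 in SBP. Gas6, a ligand of Mertk, stood at 6.04, 4.84 and 5.25 per 100 in I/R and 9.75, 6.83 and 9.15 per 100 in SBP. The marker sum in the divisor was itself lower in SBP, by a ratio of 0.587, which raises SBP values on this scale. Of the 15 lower genes named by the rule, 4 stayed below in all SBP hearts: Sla, Wfdc17, Siglec1 and Ms4a6d. Wfdc17 stood at 1.85, 2.88 and 1.58 per 100 in I/R and 1.06, 1.34 and 0.789 per 100 in SBP. These 15 genes include some that are not specific to macrophages, such as Arntl, Atf4 and Klhl38. The scale was chosen after the CPM values had been seen.

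For neutrophil and acute phase genes, I/R mouse 2 weighed most on the median and on the number below 0. All 16 tested members had a fold change below 0 with all mice, and 10 without I/R mouse 2, with a median of −0.91, which was −0.26 without I/R mouse 2 and −1.35 without I/R mouse 1. An unadjusted p under 0.05 was seen in 4 of them, all lower, beside 2.29% of all genes, in 9 without I/R mouse 1, in 2 without I/R mouse 2, in 1 without SBP mouse 1 and in none without SBP mouse 3. In the fit without I/R mouse 1, 530 of all 15892 genes were lower at that p. Saa3, an acute phase serum amyloid, stood at 2.2, 552 and 7.74 CPM in I/R and 1.84, 5.63 and 0.982 CPM in SBP (log2 fold change −2.90, SE 1.49, p 0.0798). S100a8, a calcium-binding protein of neutrophils, stood at 11.8, 136 and 19.4 CPM and 22.8, 10.7 and 11 CPM (log2 fold change −1.14, SE 0.76, p 0.164). I/R mouse 2 stood far above all others in both genes, and without it the log2 fold change was −0.66 for Saa3 and −0.11 for S100a8. It was −4.38 and −1.82 without I/R mouse 1. The haptoglobin gene Hp had 9.5, 83.2 and 9.73 CPM in I/R and 5.53, 7.09 and 4.68 CPM in SBP (log2 fold change −1.66, SE 0.66, p 0.031), where even the other I/R mice were above SBP, and it was −0.66 without I/R mouse 2. Csf3r, the receptor of granulocyte colony-stimulating factor, stood at 115, 95.6 and 54.7 CPM in I/R and 58.3, 67.5 and 39.7 CPM in SBP (log2 fold change −0.64, SE 0.27, p 0.0407), and the lectin gene Clec4d at 39, 93.8 and 23.5 CPM and 21.1, 28.4 and 15.5 CPM (log2 fold change −1.04, SE 0.42, p 0.0346). The value for Clec4d was −0.50 without I/R mouse 2, and for Csf3r it was −0.42 without I/R mouse 1 or SBP mouse 3. Summed neutrophil markers were 150, 386 and 108 CPM in I/R and 124, 97.2 and 71.5 CPM in SBP.

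Signals between immune cells were a further list. Of 36 tested chemokine, interleukin and receptor genes, 31 had a fold change below 0, beside 56.4% of all genes. Of these genes 7 were lower at an unadjusted p under 0.05, beside 2.29%, and 5 had all SBP hearts below all I/R hearts, beside 4.35%. Their median was −0.38, with −0.22 without I/R mouse 2 and −0.66 without I/R mouse 3. The number at p under 0.05 was 3 without I/R mouse 2, 11 without I/R mouse 3, 2 without SBP mouse 1 and 4 without SBP mouse 3. Il4ra, the shared receptor chain of interleukins 4 and 13, stood at 82, 169 and 95.8 CPM in I/R and 73.5, 64.5 and 70.7 CPM in SBP (log2 fold change −0.66, SE 0.29, p 0.0453, and −0.35 without I/R mouse 2), and Ccl6 at 67.6, 88.5 and 95.7 CPM and 51.3, 64.3 and 51.7 CPM (log2 fold change −0.57, SE 0.23, p 0.0297). All 28 tested interferon response genes had a fold change below 0 with all mice, with a median of −0.41. Without I/R mouse 2 only 19 were below 0 and the median was −0.14, and without I/R mouse 3 it was −0.64. Here 4 genes were lower at an unadjusted p under 0.05 with all mice, beside 2.29% of all genes, none without I/R mouse 2 and 18 without I/R mouse 3. Their number was 2 without SBP mouse 1 or 3 and 8 without SBP mouse 2. Over all genes the number lower at that p was 971 of 15920 without I/R mouse 3 and 627 of 15939 without SBP mouse 2. Ifi204, a DNA sensor of the Ifi200 family, stood at 89.8, 134 and 101 CPM in I/R and 66.9, 81.6 and 52.8 CPM in SBP (log2 fold change −0.69, SE 0.24, p 0.0168), and Ifi207 of the same family at 186, 247 and 302 CPM and 177, 143 and 125 CPM (log2 fold change −0.71, SE 0.29, p 0.0347). Oas2, an antiviral synthetase, overlapped at 61.7, 82.7 and 44.4 CPM and 25.9, 51.5 and 30.1 CPM (log2 fold change −0.81, SE 0.27, p 0.0136). Apobec3, a cytidine deaminase that restricts retroviruses, had the smallest p among the lower genes named by the rule, at 138, 160 and 144 CPM in I/R and 85.6, 94.4 and 97.3 CPM in SBP (log2 fold change −0.66, SE 0.13, p 0.000373). The MHC class II list held a median of 0.05 over 8 genes, which was 0.84 without I/R mouse 1, −0.21 without I/R mouse 2, −0.26 without I/R mouse 3, 0.31 without SBP mouse 1 and −0.18 without SBP mouse 2. None of its genes had an unadjusted p under 0.05 with all mice, while 5 were higher at that p without I/R mouse 1, and 1 was lower without I/R mouse 3 or SBP mouse 2. Without I/R mouse 3 all 8 were below 0. Its inducer Ciita stood at 27.7, 3.87 and 3.64 CPM and 5.67, 16.2 and 9.44 CPM, so that I/R mouse 1 and SBP mouse 2 were again the highest of their groups.

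Of the 15 higher genes, Abca8a is also one of the fibroblast markers. Abca8a (chr11:110025634-110095978) and Abca8b, neighbouring genes of lipid transporters, stood at 503, 477 and 509 CPM in I/R and 931, 815 and 1110 CPM in SBP for the first (log2 fold change 0.93, SE 0.20, p 0.000755) and at 118, 156 and 121 CPM and 273, 210 and 337 CPM for the second (log2 fold change 1.03, SE 0.22, p 0.000804). Abca8a and Abca8b are close copies, and reads shared between them could be split in counting. Sham hearts held 912 ± 254 CPM (SD, n = 3) of Abca8a. Pcsk6, a protease that matures TGF beta family ligands, stood at 145, 111 and 159 CPM and 243, 227 and 332 CPM (log2 fold change 0.94, SE 0.20, p 0.000789). Podn, a small leucine-rich proteoglycan, stood at 12.1, 15.5 and 14.5 CPM and 22.5, 32.5 and 37.6 CPM (log2 fold change 1.06, SE 0.21, p 0.000499). The metalloproteinase inhibitor gene Reck had 23.5, 27.6 and 27.2 CPM in I/R and 46.7, 35.9 and 48.6 CPM in SBP (log2 fold change 0.71, SE 0.16, p 0.0013), and the hedgehog factor gene Gli2 had 22.8, 20.4 and 19.2 CPM and 32.7, 29.6 and 43.1 CPM (log2 fold change 0.72, SE 0.16, p 0.000988). Gxylt2, a xylosyltransferase that modifies Notch, stood at 43, 59.3 and 56 CPM and 101, 76.7 and 108 CPM (log2 fold change 0.84, SE 0.19, p 0.00131).

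The fibroblast marker sum, 4460, 3970 and 5110 CPM in I/R and 4840, 4770 and 5870 CPM in SBP, overlapped between the groups. Of its 10 markers, 8 had a fold change above 0, beside 43.6% of all genes. At an unadjusted p under 0.05, 3 were higher, beside 1.69% of all genes. In 4 all SBP hearts were above all I/R hearts, beside 3.73%, and Abca8a is one of these. The 15 higher genes had a median log2 ratio of 0.94 in CPM and of 0.75 per 100 CPM of fibroblast markers. Both values follow largely from the rule, which chose these genes as higher in the same hearts, and are no finding. Some of them, such as Dbp, Hlf, Per3 and Carmn, are not specific to fibroblasts. For Abca8a, which is itself a marker and was left out of its own sum, the values were 12.7, 13.7 and 11.1 per 100 in I/R and 23.8, 20.6 and 23.3 per 100 in SBP. Dbp stood at 0.119, 0.136 and 0.186 per 100 in I/R and 0.382, 0.776 and 0.51 per 100 in SBP.

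TGF beta, a factor that drives matrix production, is secreted in a latent form held by binding proteins and released in injured tissue. Of 24 tested genes of TGF beta and activin signalling, 18 had a fold change above 0, beside 43.6% of all genes, and 5 an unadjusted p under 0.05, all higher in SBP, beside 1.69% of all genes. That number was 3 without I/R mouse 1, SBP mouse 1 or SBP mouse 3 and 2 without I/R mouse 3. In 6 genes all SBP hearts were above all I/R hearts, beside 3.73% of all genes, and the median was 0.18, with 0.28 without SBP mouse 2, 0.13 without SBP mouse 3 and 0.10 without SBP mouse 1. Ltbp4, which binds latent TGF beta to elastic fibres, stood at 68.2, 58.1 and 65.5 CPM in I/R and 113, 86.7 and 130 CPM in SBP, against 172 ± 38.6 CPM (SD, n = 3) in sham (log2 fold change 0.76, SE 0.19, p 0.00245). Bmp6, a ligand of the family, stood at 194, 237 and 233 CPM and 367, 260 and 323 CPM (log2 fold change 0.51, SE 0.18, p 0.0161), and its receptor Acvr1 at 101, 98.9 and 85 CPM and 126, 115 and 126 CPM (log2 fold change 0.37, SE 0.13, p 0.0149). Among inhibitors of the pathway, Smad7 stood at 40.4, 48.7 and 44.4 CPM and 77.7, 44.4 and 65.2 CPM (log2 fold change 0.45, SE 0.19, p 0.04, and 0.27 without SBP mouse 1), with SBP mouse 2 inside the I/R range, and Ski at 144, 144 and 125 CPM and 166, 172 and 183 CPM (log2 fold change 0.33, SE 0.13, p 0.0309). The ligand gene Tgfb2 had 74.1, 72.9 and 43.9 CPM in I/R and 90, 88.3 and 81 CPM in SBP (log2 fold change 0.47, SE 0.25, p 0.0844, and 0.23 without I/R mouse 3). Ltbp1, another latent TGF beta binding protein, stood at 224, 213 and 201 CPM and 238, 239 and 301 CPM (log2 fold change 0.28, SE 0.13, p 0.0623, and 0.17 without SBP mouse 3). The 6 genes without overlap were Tgfb2, Bmp6, Acvr1, Ltbp1, Ltbp4 and Ski.

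Collagens and genes of activated fibroblasts lay on both sides of 0. Over 27 collagen and matrix enzyme genes the median was 0.03, with 15 above and 12 below 0, and it was −0.31 without I/R mouse 3 and 0.16 without I/R mouse 1. Of 23 tested injury fibroblast genes 14 were above and 9 below 0, with a median of 0.03 that was −0.18 without I/R mouse 3 and 0.26 without I/R mouse 1. Col8a1, a short-chain collagen, stood at 388, 190 and 195 CPM in I/R and 333, 467 and 441 CPM in SBP (log2 fold change 0.75, SE 0.28, p 0.0241), and Lox, the collagen crosslinker, at 19.8, 34.4 and 38 CPM and 19.8, 15.8 and 22.4 CPM (log2 fold change −0.60, SE 0.24, p 0.0318). Both overlapped and they went in opposite directions. For Col1a1 the values were 339, 236 and 119 CPM and 133, 181 and 117 CPM (log2 fold change −0.58, SE 0.33, p 0.108). Its log2 fold change was −1.0 without I/R mouse 3, which was low in such genes, and −0.25 without I/R mouse 1. In the fit without I/R mouse 3, 7 of these 27 genes were lower at an unadjusted p under 0.05, where 1 was with all mice, and over all genes the number lower at that p went from 368 of 16056 to 971 of 15920. Without I/R mouse 1, 3 of the 27 were higher at that p, where 1 was with all mice. None of the 27 was lower at it without I/R mouse 2, SBP mouse 1 or SBP mouse 2. Periostin (Postn), a matricellular protein of activated fibroblasts, stood at 171, 80.8 and 46.8 CPM in I/R, 61.2, 123 and 88.5 CPM in SBP and 14.2 ± 8.2 CPM (SD, n = 3) in sham, and its log2 fold change of 0.01 had a 95% interval of −1.08 to 1.10. Cthrc1, a collagen-associated protein of repair fibroblasts, stood at 40.4, 23.1 and 11.8 CPM and 12.5, 18.8 and 17 CPM (log2 fold change −0.47, SE 0.40, p 0.271, with −0.90 without I/R mouse 3 and −0.06 without I/R mouse 1).

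Endothelial markers leaned upward. All 10 had a fold change above 0, with a median of 0.21, and their sums overlapped, at 2020, 2730 and 2600 CPM in I/R and 3340, 2150 and 3160 CPM in SBP. The endocardial marker sum was higher in all 3 SBP hearts, at 1430, 902 and 979 CPM against 745, 828 and 764 CPM in I/R, a ratio of 1.42. Sham hearts ranged from 541 to 1060 CPM and so covered both groups in part. Of the markers summed, Npr3, Tmem108 and Cgnl1 (printed there as Cgln1) are on the study's list of endothelial genes raised by SBP. That list was drawn from these mice, so the sum is no independent evidence. Tmem108, one of these markers, stood at 224, 326 and 221 CPM in I/R and 623, 303 and 369 CPM in SBP (log2 fold change 0.70, SE 0.36, p 0.0808, and 0.40 without SBP mouse 1), and Npr3, the clearance receptor of natriuretic peptides, at 106, 140 and 139 CPM and 221, 128 and 174 CPM (log2 fold change 0.42, SE 0.27, p 0.153, and 0.23 without SBP mouse 1). Neither separated the groups. Of 33 tested endocardial and angiogenic genes, 27 had a fold change above 0, beside 43.6% of all genes, with a median of 0.17. None had an unadjusted p under 0.05 with all mice, while 4 were higher at that p without SBP mouse 2, beside 425 of all 15939 genes in that fit, and 1 without I/R mouse 3, beside 339 of 15920. In 1 of the 33, Nppa, all SBP hearts were above all I/R hearts, beside 3.73% of all genes. The gap for Nppa was narrow, and it is also on the list of cardiomyocyte stress genes. The study names Npr3, Ccn1, Arap3, Vegfc and Igfbp7 of these 33 genes for SBP, and lists Cgnl1. It chose them from these mice, so the direction of this list is no independent evidence either.

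The remaining cell types were checked by their marker sums. T cell markers summed to 113, 31.2 and 28.3 CPM in I/R and 23.4, 88.9 and 27.1 CPM in SBP, high in I/R mouse 1 and SBP mouse 2. The B cell sum was higher in all SBP hearts, but it was made up almost wholly of Ebf1, which fibroblasts and pericytes also express. Ebf1 stood at 1170, 1360 and 1130 CPM in I/R and 1590, 1530 and 2060 CPM in SBP (log2 fold change 0.49, SE 0.19, p 0.0257). Without it the B cell sum was 74.9, 17.9 and 24.1 CPM in I/R and 41.4, 66.3 and 76.1 CPM in SBP, and the B cell receptor gene Cd79a was at or below 1.43 CPM. Smooth muscle and pericyte markers lay between 210 and 334 CPM in I/R and between 265 and 341 CPM in SBP, and Schwann cell markers between 211 and 375 CPM and between 299 and 398 CPM. Skeletal muscle markers summed to 10.2, 9.26 and 5.4 CPM in I/R and to 22.7, 14.6 and 12.2 CPM in SBP, and Myh1 among them was at 0 in all 6 hearts. Most of the sum in each of these hearts was Acta1, whose levels are given above with the sarcomere genes. The part of skeletal muscle RNA in the levels of Myh7 and Acta1 was not tested. The adipocyte gene Adipoq was at most 0.165 CPM, and mesothelial markers summed to at most 16.8 CPM.

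Stress hormones, damage signals and nutrient state give further axes of the injured heart. Of 25 glucocorticoid receptor and responsive genes, 22 had a fold change below 0, beside 56.4% of all genes. The number below 0 was 16 without I/R mouse 2 and 15 without I/R mouse 3. The median of −0.28 was −0.58 without I/R mouse 1, −0.13 without I/R mouse 2 or SBP mouse 2 and −0.06 without I/R mouse 3. At an unadjusted p under 0.05, 1 gene was higher, beside 1.69% of all genes, and 1 lower, beside 2.29%. Without I/R mouse 2 none was higher or lower at that p, and without SBP mouse 1 there were 1 higher and 4 lower. Cdkn1a, the cell cycle inhibitor p21, stood at 21.4, 56.1 and 48.7 CPM in I/R and 22.5, 15.1 and 18.3 CPM in SBP (log2 fold change −1.04, SE 0.37, p 0.0185). Pdk4, which turns the heart from glucose to fat, stood at 375, 582 and 953 CPM and 674, 207 and 204 CPM (log2 fold change −0.95, SE 0.58, p 0.128, with −1.52 without SBP mouse 1 and −0.61 without I/R mouse 3). Fkbp5, a co-chaperone of the glucocorticoid receptor, stood at 265, 819 and 819 CPM and 443, 296 and 332 CPM (log2 fold change −0.67, SE 0.68, p 0.343, with −1.22 without I/R mouse 1 and −0.40 without I/R mouse 2). The mTOR inhibitor gene Ddit4 stood at 25.7, 42.1 and 45 CPM and 36.9, 10.8 and 15.2 CPM (log2 fold change −0.96, SE 0.55, p 0.115, and −0.60 without SBP mouse 2). In all 4, I/R mouse 1 was low and SBP mouse 1 high within its group, and the groups overlapped. Trp53inp1, a target of p53, stood at 35, 61.6 and 115 CPM in I/R and 36.8, 28.7 and 25.2 CPM in SBP (log2 fold change −1.05, SE 0.34, p 0.0119; −0.62 without I/R mouse 3). Atf4, the factor of the integrated stress response, had a narrow spread, at 52.8, 52.2 and 50.4 CPM and 37.5, 38.4 and 36.4 CPM (log2 fold change −0.46, SE 0.11, p 0.00219), as had Dhx9, an RNA helicase, at 79.4, 76.8 and 81 CPM and 44.3, 60.7 and 56.1 CPM (log2 fold change −0.56, SE 0.13, p 0.00179).

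Immediate early genes leaned the other way, with a median of 0.20 over 25 genes, −0.13 without I/R mouse 1, −0.06 without SBP mouse 1 and 0.42 without I/R mouse 2. Egr1 stood at 22.8, 70.6 and 29.7 CPM in I/R and 125, 46.9 and 102 CPM in SBP (log2 fold change 1.19, SE 0.55, p 0.0545), and Nr4a1 at 13.5, 100 and 56.3 CPM and 126, 67.6 and 69.3 CPM (log2 fold change 0.95, SE 0.62, p 0.153, with 0.16 without I/R mouse 1 and 1.56 without I/R mouse 2). None of the 25 had an unadjusted p under 0.05 with all mice, while 5 were higher at it without I/R mouse 2 and 2 lower without I/R mouse 1. Metabolic lists had medians of −0.01 for 34 genes of substrate choice and fatty acid oxidation, −0.05 for 37 nuclear genes of the respiratory chain and −0.14 for 24 genes of glycolysis. Single mice moved them. The substrate choice list had 17 genes above and 17 below 0 with all mice, 7 and 27 without I/R mouse 1 (median −0.20) and 27 and 7 without I/R mouse 3 (median 0.19). Of the respiratory chain genes 14 were above and 23 below 0 with all mice, 1 and 36 without I/R mouse 2 (median −0.18), and 32 and 5 without I/R mouse 3 (median 0.14). The glycolysis median was −0.25 without I/R mouse 1 and −0.08 without I/R mouse 2. The medians were −0.03 for 18 hypoxia genes, −0.12 for 19 heat shock genes and −0.13 for 23 antioxidant genes, the last being −0.37 without I/R mouse 1 and 0.05 without I/R mouse 2. The hypoxia median was −0.15 without SBP mouse 3 and 0.06 without I/R mouse 3. For heat shock genes it was −0.17 without I/R mouse 2 and −0.02 without I/R mouse 1. Of the antioxidant genes 4 were lower at an unadjusted p under 0.05, beside 2.29% of all genes, and 2 without SBP mouse 1 or sham mouse 1, while 5 metallothionein and zinc transport genes had a median of −0.47 that was −0.08 without I/R mouse 2 and −0.81 without I/R mouse 1. Of 21 p53 and apoptosis genes 18 were below 0, beside 56.4% of all genes, with a median of −0.25 that was −0.07 without I/R mouse 1. With all mice, genes of replication and mitosis were below 0 in all 30 cases, and in 15 without I/R mouse 1, with a median of −0.36, none at an unadjusted p under 0.05 with all mice, 6 without I/R mouse 3 and 2 without SBP mouse 2. Their median was −0.01 without I/R mouse 1, in which Mki67, a mark of cycling cells, was highest, at 37.1, 28.6 and 10.2 CPM in I/R and 14.1, 18.6 and 9.44 CPM in SBP. Of 34 ribosomal protein genes, 33 were below 0, beside 56.4% of all genes, with a median of −0.18. Rps9 was the one lower at an unadjusted p under 0.05, beside 2.29% of all genes, at 150, 143 and 113 CPM and 103, 114 and 91.1 CPM (log2 fold change −0.39, SE 0.15, p 0.0284). In 7 other ribosomal genes all SBP hearts were below all I/R hearts, beside 4.35% of all genes. The number at p under 0.05 was 7 without I/R mouse 3, 2 without SBP mouse 2 and 0 without I/R mouse 1, I/R mouse 2, SBP mouse 1 or SBP mouse 3. Over all genes the number lower at that p was 971 of 15920 without I/R mouse 3 and 627 of 15939 without SBP mouse 2.

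**Figure D4:**
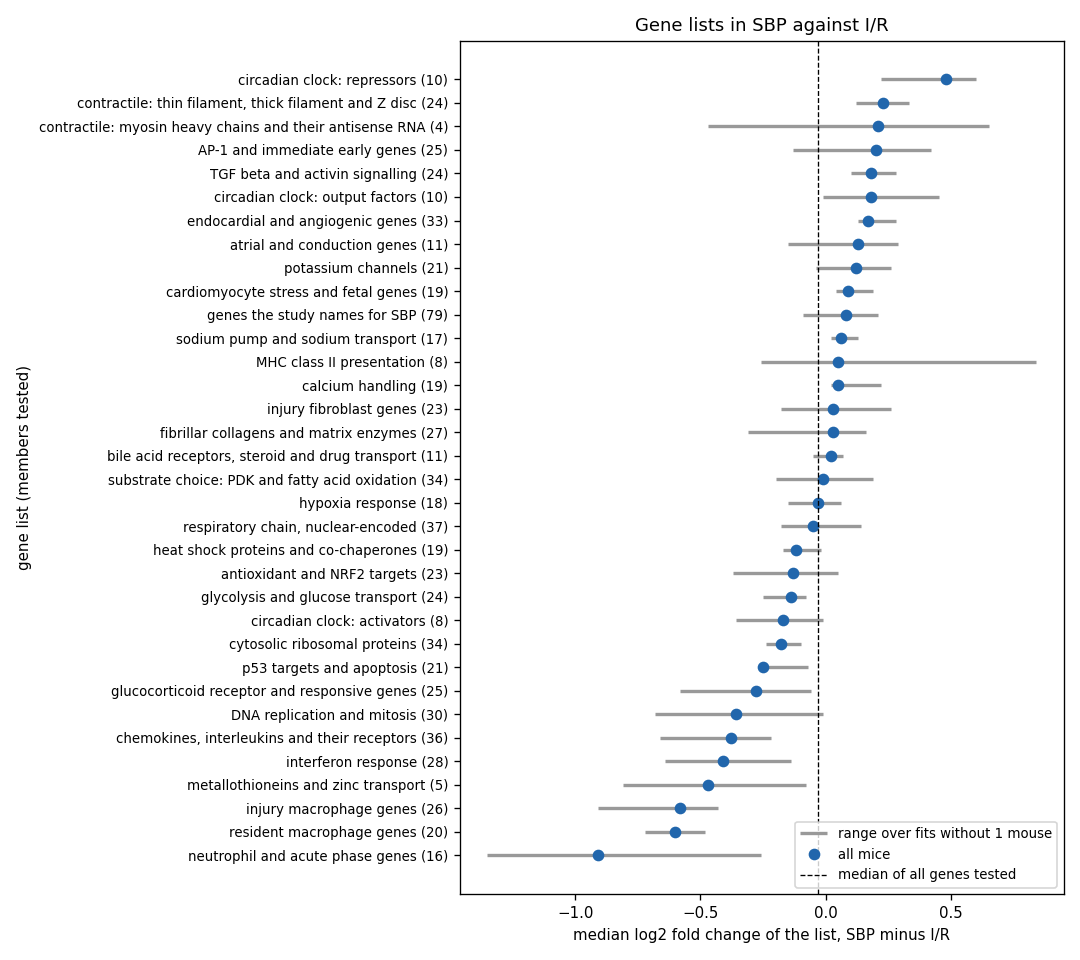
Median log2 fold change of SBP against I/R for 34 gene lists (points, number of tested members in brackets), with the range of that median over the fits that left out 1 mouse (grey bars) and the median of all genes (dashed line). Macrophage, neutrophil and interferon lists lie to the left, clock repressors to the right, and several bars, such as those of the myosin and MHC class II lists, cross 0.

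The main text of the study names 79 genes for SBP, and longer supplementary lists of regulated genes were not used as gene lists here. Some genes described above are on those supplementary lists, among them Actn2, Ldb3, Jph2, Klhl38, Bmp6, Acvr1, Tmem108 and Ebf1. Others described above are among the 79, such as Myh7, Mhrt, Tpm1, Actc1, Kcnip2, Nppb, Npr3, Cdkn1a, Saa3 and Selenop. The 79 and the supplementary genes were chosen on these samples, so their direction here is no independent evidence. The study ran its differential tests with DESeq2 separately for cell clusters and types, so sums over all cell types measure something else. In these sums 44 of the 79 had a fold change above 0 and 35 below, with a median of 0.08 and none called. The median was −0.09 without SBP mouse 2 and 0.21 without I/R mouse 1. The split was 38 above and 41 below without SBP mouse 2, and 39 and 40 without I/R mouse 3. With all mice an unadjusted p under 0.05 was found in 13 of the 79, 7 higher and 6 lower, beside 1.69% and 2.29% of all genes. That number was 24 without I/R mouse 1 and 6 without SBP mouse 3. In 11 all SBP hearts were above all I/R hearts and in 5 below, beside 3.73% and 4.35% of all genes. Sgcd, a sarcoglycan of the muscle membrane, stood at 1240, 834 and 1060 CPM in I/R and 1440, 1460 and 1730 CPM in SBP (log2 fold change 0.58, SE 0.16, p 0.00499). Aldh1a2, which makes retinoic acid, stood at 36.9, 32 and 18.6 CPM and 46, 55 and 62 CPM (log2 fold change 0.92, SE 0.31, p 0.0151). Ntn1, the guidance cue netrin 1, stood at 142, 242 and 257 CPM and 321, 262 and 341 CPM (log2 fold change 0.56, SE 0.22, p 0.0289, and 0.30 without I/R mouse 1), and Enpp2, which makes lysophosphatidic acid, at 42, 35.7 and 38.2 CPM and 53, 57.5 and 95.3 CPM (log2 fold change 0.77, SE 0.35, p 0.055, and 0.51 without SBP mouse 3). All 4 were higher in every SBP mouse.

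On the lower side of that list stood Pappa, a protease of IGF-binding proteins, at 49.5, 121 and 56.7 CPM in I/R and 36.1, 36.6 and 34.2 CPM in SBP (log2 fold change −0.95, SE 0.34, p 0.0186). Cd38, an NAD-consuming ectoenzyme, stood at 95.3, 348 and 112 CPM and 81.9, 61.7 and 59.6 CPM (log2 fold change −1.20, SE 0.40, p 0.0133), and Fbxl5, an iron-sensing ubiquitin ligase subunit, at 120, 579 and 139 CPM and 108, 93.8 and 88.8 CPM (log2 fold change −1.13, SE 0.47, p 0.0372). In these 3 genes I/R mouse 2 was far above the rest, while the other I/R mice also exceeded SBP. Without that mouse the log2 fold change was −0.56 for Pappa, −0.62 for Cd38 and −0.41 for Fbxl5. Zbtb16, a zinc finger factor that responds to glucocorticoids, stood at 899, 1440 and 1650 CPM and 1080, 673 and 711 CPM (log2 fold change −0.68, SE 0.58, p 0.27), with overlap.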

How the data were processed

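Nuclei were isolated from frozen hearts, taken below the ligation per the study's methods, and sequenced with droplet 3′ chemistry, 1 library per mouse. The deposited matrices hold natural log values, ln(1 + x), where the authors had scaled the UMIs of each nucleus to a total of 10000. The submitters' processing notes name Cell Ranger 4.0, STAR, Seurat 3.2.0 and GRCm38. The logarithm was undone and each nucleus divided by its smallest non-zero value, which gave whole UMIs within 0.1 for at least 99.99936% of values. UMIs were summed over all 49171 nuclei, without removing doublets, and scaled to CPM. At most 14 barcodes (0.251%) were shared by a pair of libraries. Nuclei had 405 genes or more, beside the study's stated minimum of 200, and the files hold fewer nuclei than the study states, so the sums cover only part of its nuclei.

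Genes reaching 0.717 CPM in 3 samples were kept (16056 of 23747). Since the deposited unit was a natural log, limma 3.58.1 (R 4.3.3) was fitted to log2(CPM + 1) over all 9 samples, with Benjamini-Hochberg adjustment. Fold changes on this scale understate those of low genes. Calls required an adjusted p not above 0.05 and a log2 fold change beyond 0.25 in either direction. An exact permutation test of 3 against 3 mice cannot go below p = 0.1. Named genes were the 15 per direction of smallest p, without overlap and with a mean of at least 10 CPM, members of the gene lists with large fold changes or best known in them, and genes named by the study. Members and lists were chosen with earlier results of these data known. Alternatives changed the scaling, pseudocount, filter, samples, weights and nuclei. Summaries and figures were made with Python 3.11.15, pandas 2.3.3 and matplotlib 3.10.9, and the fit was tested on simulated data. Promoter windows came from RefSeq on GRCm38.p6. The strand setting of counting, batches and the hour of collection are not given in the sources used here. The p-values set a difference between groups against a spread between mice that was estimated over all 9 samples and moderated across genes.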

Additional observations from a re-analysis of the deposited data

How the results depend on the processing

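No gene was called between SBP and I/R in any of the 22 alternatives, and 112 of 125 tested genes named in the text kept the sign of their difference in all of them. Counts at an unadjusted p under 0.05 ranged from 286 to 1310 when 1 mouse was left out, and those of study-named genes from 6 to 24, with 25 under sample weights. Calls between I/R and sham ranged from 379 to 2552 in the same way and were 903 with only the 6 samples compared. With TMM factors they split into 950 higher and 777 lower, and with median-of-ratios factors into 995 and 770. With the replicate number as a replicate block, 0 genes were called between SBP and I/R, 691 had an unadjusted p under 0.05, and 1403 were called between I/R and sham. Deviations of same-numbered mice correlated between −0.395 and 0.29, and those of differently numbered mice between −0.307 and 0.456. With 3 mice per group, these values cannot tell whether mice of the same number shared a batch. For 13 genes the log2 fold change changed sign. With 1 mouse left out, Per1 ranged from −0.22 to 0.26, Cry2 from −0.14 to 0.31, Myh6 from −0.70 to 0.36, Postn from −0.42 to 0.50, Spp1 from −1.48 to 0.31, Ciita from −0.16 to 1.16, Ankrd1 from −0.12 to 0.88, Ttn from −0.11 to 0.12, Cd79a from −0.12 to 0.26, Camta1 from −0.14 to 0.35, Coq10b from −0.26 to 0.65, Gas6 from −0.32 to 0.04 and Atp1b1 from −0.35 to 0.09. Under sample weights Per1 was −0.10, Ankrd1 −0.13 and Myh6 0.43, and Myh6 was 0.01 with TMM and 0.02 with median-of-ratios factors. Postn was −0.17 and Ttn −0.07 with every nucleus weighted alike, and Postn was −0.20 without the 5% of nuclei with most UMIs and −0.02 when thinned to the smallest total. The cause was not tested. Thinned to the smallest total of 10329520 UMIs, 660 genes had an unadjusted p under 0.05, beside 640 at full depth.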
